A study of Mus musculus with 87 samples.

Results

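Hearts of newborn semi-cloned mice were compared between the genotypes labelled pIR and pWT at postnatal day 1 (P1). The comparison holds 5 of the 87 libraries of the series, 2 of pIR and 3 of pWT, and was taken whole, with no library chosen by its values. In semi-cloning an oocyte receives, instead of a sperm, an androgenetic haploid embryonic stem cell with a genome of paternal origin, and the series title describes such cells lacking DNA methylation. The meaning of pIR, of pWT and of the prefix p, the strain, and the number of animals or clones behind each group could not be learned from the labels. Nothing states that the libraries came from separate animals, so every p below measures the spread between these libraries. Hearts of the same genotypes at E18.5 (4 pIR and 4 pWT, labelled batch 2) and P1 kidney, liver and lung (2 pIR and 3 pWT each) served as reference points. A further 4 E18.5 hearts of batch 1, 2 pWT and 2 of the genotype labelled pTKO, served only as context for marker levels.

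The neonatal heart is built from an atrial and a ventricular muscle that use different genes for the same task. Atrial myocytes carry the regulatory light chain Myl7, the essential light chain Myl4, the calcium pump inhibitor sarcolipin (Sln) and store atrial natriuretic peptide (Nppa). Ventricular myocytes use the light chains Myl2 and Myl3 and the phosphoprotein phospholamban (Pln), under transcription factors such as Irx4 and Hey2. Around birth the muscle also turns from glycolysis to the oxidation of fatty acids. Because a whole heart mixes chambers, vessels, fibroblasts and blood, fewer cells of a type and less RNA per cell cannot be told apart in these samples.

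The 5 libraries held 13.9, 18.3 and 15.1 M counts (M, mega) in pWT and 15.1 and 16.7 M in pIR, and Y-linked genes had at most 3 counts in any of them. The general cardiomyocyte list summed to 60583 to 71727 CPM, counts scaled to 1 M per library, in pWT, and to 57716 and 45023 in pIR. The chi-square per degree of freedom between replicates was 12.1 to 34.2 among pWT libraries and 56.9 between the pIR libraries, above counting noise in each case. The pIR libraries stood apart from each other in their chamber genes, and that difference is given first because many later values moved with it.

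Genes used in different chambers are shown first by their RefSeq promoters (250 bases before to 50 bases after the annotated start, build GRCm38.p6), 5′ to 3′ on the gene's strand. They are Myl7 (chr11:5898733-5899032, minus strand) and Nppa (chr4:148000472-148000771, plus strand) of the atrial list and Myl3 (chr9:110763428-110763727, plus strand) of the ventricular list.
Myl7: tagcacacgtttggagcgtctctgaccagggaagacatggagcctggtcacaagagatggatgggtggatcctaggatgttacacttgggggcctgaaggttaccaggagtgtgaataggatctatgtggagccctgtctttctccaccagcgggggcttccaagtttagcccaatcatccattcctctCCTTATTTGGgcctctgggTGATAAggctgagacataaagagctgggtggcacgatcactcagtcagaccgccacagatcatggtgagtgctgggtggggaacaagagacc
Nppa: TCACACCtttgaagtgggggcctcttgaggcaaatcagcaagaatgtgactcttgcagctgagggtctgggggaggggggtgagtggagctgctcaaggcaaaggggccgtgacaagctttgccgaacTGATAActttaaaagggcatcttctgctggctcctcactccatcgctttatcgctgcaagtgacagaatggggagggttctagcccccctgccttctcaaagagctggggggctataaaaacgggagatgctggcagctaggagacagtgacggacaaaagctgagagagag
Myl3: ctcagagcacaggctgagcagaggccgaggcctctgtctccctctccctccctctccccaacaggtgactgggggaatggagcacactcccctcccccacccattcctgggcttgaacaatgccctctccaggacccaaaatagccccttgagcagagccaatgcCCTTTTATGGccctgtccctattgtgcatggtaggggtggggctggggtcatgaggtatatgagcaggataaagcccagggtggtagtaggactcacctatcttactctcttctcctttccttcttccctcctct
Capitals mark the letters of 3 searched motifs, read on both strands: the serum response factor CArG box, the GATA motif TGATAA and the T-box motif GGTGTGA. The CArG box lay in 1.63% of all 32851 promoter windows, in Myl7 among 14 atrial genes with a window, and in Myl3 and Fhl2 among 8 ventricular genes with one. TGATAA lay in 9.05% of all windows, in Myl7, Nppa and Stard10 of the atrial list and in Pln of the ventricular list. GGTGTGA lay in 3.98% of all windows and in Nppa and Stard10. These matches describe letters, not bound sites.

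Of the 17 genes of the atrial list, 16 read highest in the library pIR 2 among 17 heart libraries (the 5 of P1 and 12 of E18.5, 4 of these from batch 1, 2 pWT and 2 of the genotype labelled pTKO), and Kcna5 read lowest there. The excess over the next highest heart library ranged from narrow to wide. Bmp10 read 56.8 CPM in pIR 2 and 50.5 CPM in 1 E18.5 pIR heart, but 0.216 to 1.52 CPM in the P1 pWT hearts. Gja5 read 537 CPM in pIR 2 and at most 90.3 CPM in any other heart library. In the P1 comparison Myl7, Sln and Fgf12 passed the test. Myl7 (chromosome 11, 5896637–5898782, mm10) stood at 101, 135 and 76.3 CPM in pWT 1 to 3, at 379 CPM in pIR 1 and at 3756 CPM in pIR 2. Both pIR libraries were above all pWT libraries, and pIR 2 was the higher of them. Myl7 rose by 4.19 ± 0.78 on the log2 scale (SE, edgeR adjusted p = 0.0433), and by 1.78 (edgeR adjusted p = 0.107) without pIR 2. Sln, which restrains the calcium pump, read 2.73, 4.33 and 0.528 CPM in pWT against 25.8 and 405 CPM in pIR, and rose by 6.25 ± 1.11 on the log2 scale (edgeR adjusted p = 0.0428). Without pIR 2 the value for Sln was 3.23 (edgeR adjusted p = 0.159). The third called member of the atrial list, the intracellular growth factor homologue Fgf12, went from 0.216, 1.31 and 0.726 CPM to 5.1 and 90.4 CPM (log2 fold change 5.79, edgeR adjusted p = 0.0464). Nppa did not separate the groups, with 1040, 2859 and 1439 CPM in pWT against 967 CPM in pIR 1 and 8514 CPM in pIR 2.

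Of the 17 atrial genes tested, 3 rose and 0 fell, where 2.32% of all 15021 genes tested were called (1.54% rose and 0.786% fell). The median log2 fold change of the list was 2.19, against 0.003 over all genes tested, and 16 of its 17 members were positive. In pIR 1 alone the median of the list was 0.73, and in pIR 2 it was 3.02. The exception was the potassium channel Kcna5, at 42.1, 47.1 and 50.7 CPM in pWT and 30.5 and 14.1 CPM in pIR (log2 fold change -1.16, edgeR adjusted p = 0.0797). Members such as Myl4 (log2 fold change 3.52, edgeR adjusted p = 0.0534), Bmp10, a growth factor of trabecular and atrial muscle (4.76, edgeR adjusted p = 0.0786), and the gap junction gene Gja5 (2.19, edgeR adjusted p = 0.102) did not pass. Gja5 read 69.5 CPM in pIR 1, inside the pWT range of 50.6 to 79.5 CPM, and 537 CPM in pIR 2. No member of the list was at 0 in any heart library.

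Ventricular genes were lowest in pIR 2. Myl2 stood at 12564, 15009 and 13871 CPM in pWT, at 10325 CPM in pIR 1 and at 3007 CPM in pIR 2, so that pIR 2 was far below the other 4 libraries. Its log2 fold change of -1.14 ± 0.50 did not pass (edgeR adjusted p = 0.207). Irx4, a ventricular transcription factor, read 110, 106 and 143 CPM in pWT, 131 CPM in pIR 1 and 34.1 CPM in pIR 2. Pln, the ventricular calcium pump regulator, read 4977, 3591 and 4226 CPM in pWT, 3878 CPM in pIR 1 and 1469 CPM in pIR 2. Of the 10 ventricular genes, 0 were called and none had a positive value. The median of the list was -0.81 in the comparison, -0.29 in pIR 1 and -1.65 in pIR 2.

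**Figure D1:**
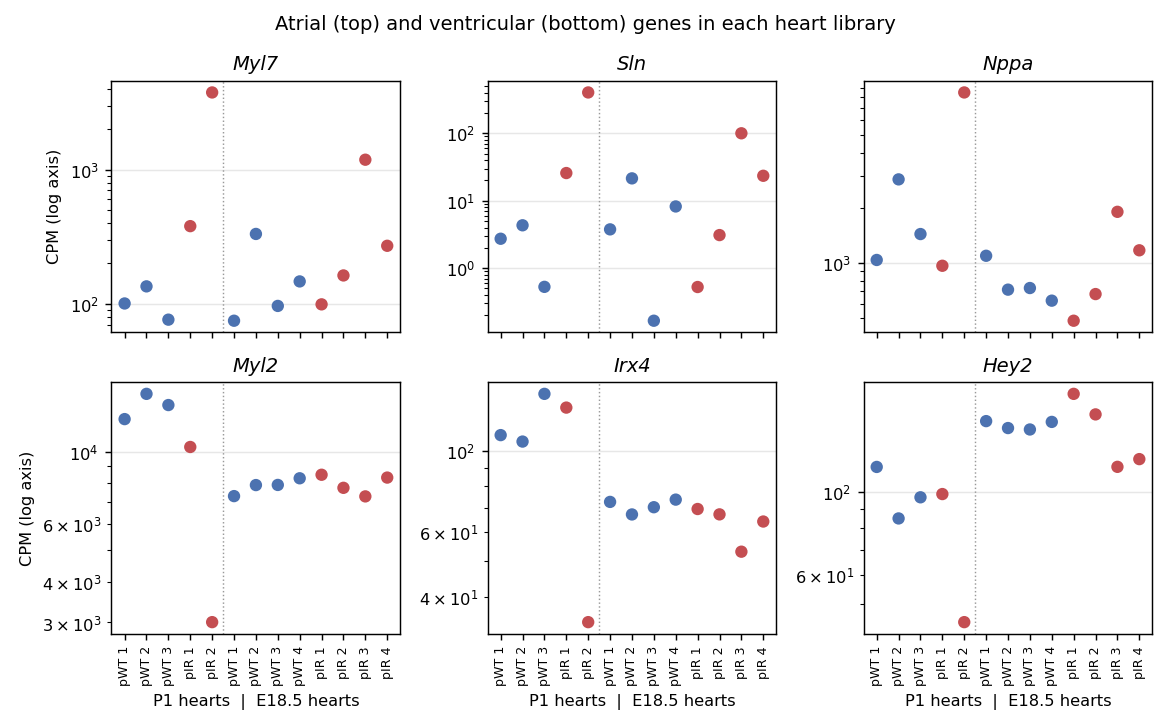
CPM on log axes of 3 atrial genes (Myl7, Sln, Nppa, top) and 3 ventricular genes (Myl2, Irx4, Hey2, bottom) in each of 5 P1 and 8 E18.5 heart libraries, 1 point per library, pWT in blue and pIR in red. At P1 pIR 2 is the highest point of every top panel and the lowest of every bottom panel, with Myl7 at 3756 CPM and Myl2 at 3007 CPM.

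The same contrast was summed over each list. The atrial list summed to 2764, 4480 and 3060 CPM in pWT, 3475 CPM in pIR 1 and 22438 CPM in pIR 2. The ventricular list summed to 27355, 29612 and 29465 CPM in pWT, 22721 CPM in pIR 1 and 8810 CPM in pIR 2. For every 100 counts of Myl2, a library held 0.802, 0.90 and 0.55 counts of Myl7 in pWT, 3.68 in pIR 1 and 125 in pIR 2. In the E18.5 hearts this ratio ran from 1.03 to 4.20 in pWT and from 1.17 to 16.3 in pIR. So pIR 1 lay above every P1 pWT heart and within the E18.5 range, while pIR 2 lay above both. Every P1 pWT heart lay below the E18.5 range. How much atrial tissue entered each preparation could not be learned from the labels, and its part in the results below was not tested beyond the fits that use the atrial level as a covariate.

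Across all genes, 231 rose and 118 fell in pIR hearts. All 349 called genes had values that did not overlap between the groups, as had 44.6% of all genes tested (29.4% higher and 15.1% lower in pIR). A larger set of 3733 genes had an unadjusted edgeR p under 0.05. The median log2 fold change was 1.24 among the genes that rose and -0.997 among those that fell, and 151 and 59 of them passed 1 in size. Among the genes that rose, the median log2 difference from the pWT mean was 0.99 in pIR 1 and 1.35 in pIR 2, and 188 of 231 were further from pWT in pIR 2. Among those that fell, these medians were -0.89 and -1.07, and 94 of 118 were further in pIR 2. So pIR 2 was the more distant of the libraries for most called genes.

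**Figure D2:**
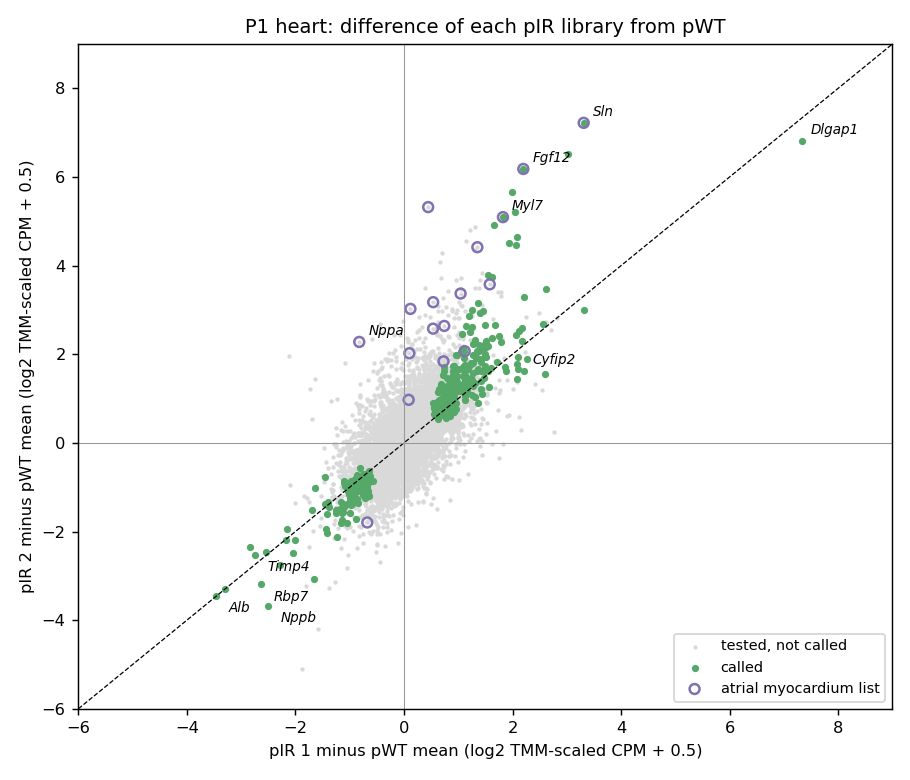
Each point is a gene tested in P1 heart, placed by its log2 difference from the pWT mean in pIR 1 (horizontal axis) and in pIR 2 (vertical axis), on TMM-scaled CPM plus 0.5, with called genes in green, members of the atrial list ringed and a dashed line at equal difference. Ringed genes lie above the line except Kcna5, which lies below it, while Dlgap1, Alb and Timp4 lie near it.

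The call count depended on single libraries. It was 6 without pIR 2, 1162 without pIR 1, 44 without pWT 1, 5 without pWT 2 and 5 without pWT 3. When 1 pIR library is left out, the lone one is assumed to vary as the pWT libraries do. The genes Dlgap1, Rbp7, Timp4 and Alb were called in all 5 of these fits, and each of the other called genes lost its call in at least 1. With the atrial level of each library as a covariate, 1 gene was called among the 5 libraries, Dlgap1, with 2 residual degrees of freedom. To give that covariate more support, the E18.5 hearts were added (13 libraries, an alternative chosen after seeing the data). That fit called 133 genes higher and 193 lower in P1 pIR hearts, 2.08% of those tested (0.848% and 1.23%), and 145 of them were among the 349. There Myl7 stood at -0.10 (edgeR adjusted p = 0.927), Sln at 0.17 (edgeR adjusted p = 0.956) and Fgf12 at -0.91 (edgeR adjusted p = 0.771), so none of the atrial calls remained, and the atrial list, from which the covariate was made, had a median of 0.03. Without the covariate the same 13 libraries gave 3221 calls. At both stages the highest atrial sum was in a pIR heart, 22438 CPM in P1 pIR 2 and 7475 CPM in E18.5 pIR 3. The covariate can therefore not be fully told apart from genotype or from the library pIR 2.

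The largest rise belonged to Dlgap1, a scaffold protein of the postsynaptic density (chromosome 17, 69969073–70821413). It read 0.36, 0.274 and 0 CPM in pWT and 115 and 81.7 CPM in pIR. It was near absent from every pWT heart and similar in both pIR hearts, with pIR 1 the higher. The log2 fold change was 8.71 ± 0.43 (edgeR adjusted p = 0.000698), 8.95 without pIR 2 and 9.02 with the atrial covariate in 13 libraries (edgeR adjusted p = 2.51e-06). All E18.5 hearts of both genotypes read at most 0.368 CPM. The P1 heart effect exceeded the mean effect in P1 kidney, liver and lung by 7.78 ± 0.46 on the log2 scale (edgeR adjusted p = 3.18e-08), and the E18.5 heart effect by 8.56 (edgeR adjusted p = 0.00291). In P1 lung, with 0.407 to 0.716 CPM in pWT and 2.14 and 1.90 CPM in pIR, the log2 fold change was 1.80 (edgeR adjusted p = 0.0392).

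Another gene that moved alike in both pIR hearts was Cyfip2, which links RNA-binding FMRP and the actin-regulating WAVE complex, named here after its values were seen. It rose from 9.21, 10.2 and 12.5 CPM to 53.2 and 36.4 CPM (log2 fold change 1.98 ± 0.22, edgeR adjusted p = 0.0205), with pIR 1 the higher. Its value was 2.24 without pIR 2 (edgeR adjusted p = 0.0194) and 2.28 with the atrial covariate in 13 libraries. The neurotensin receptor Ntsr1 went from 0.144, 0.383 and 0.066 CPM to 6.56 and 5.28 CPM (log2 fold change 4.68, edgeR adjusted p = 0.0226). Rd3, known as a guanylate cyclase regulator of photoreceptors, rose from 1.29, 1.42 and 0.858 CPM to 10.3 and 19.4 CPM (log2 fold change 3.52, edgeR adjusted p = 0.0177). Cilp, a matrix protein of cartilage and of fibroblasts, rose from 1.08, 1.31 and 0.594 CPM to 8.82 and 4.08 CPM (log2 fold change 2.57, edgeR adjusted p = 0.0428). Both Rd3 (2.38, edgeR adjusted p = 0.00647) and Cilp (2.87, edgeR adjusted p = 0.0372) kept their call with the atrial covariate in 13 libraries, and Ntsr1 did not (3.15, edgeR adjusted p = 0.294).

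Most other large rises were, by contrast, concentrated in pIR 2. Mybphl, a myosin binding protein, read 1.73, 3.40 and 1.12 CPM in pWT, 20.02 CPM in pIR 1 and 239 CPM in pIR 2. Sbk3, a putative kinase, read 2.45, 1.59 and 1.85 CPM in pWT, 9.68 CPM in pIR 1 and 132 CPM in pIR 2. The ryanodine receptor Ryr3, a calcium release channel, read 0.863, 2.08 and 0.594 CPM, then 6.30 and 61.6 CPM. For all 3 pIR 1 lay above pWT and pIR 2 far above pIR 1. Tmem163 (log2 fold change 4.30), Gadl1 (4.13), Ppp1r17 (4.26) and the calcium sensor Vsnl1 of the conduction list (5.25) followed the same order. Without pIR 2 the largest of the edgeR adjusted p among these 7 genes was 0.265, for Ppp1r17, and the smallest was 0.0911, for Mybphl. In the 13-library fit with the atrial covariate their values were between 0.656 and 1.33, none of them called.

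Among the genes that fell, the retinol binding protein Rbp7 (chromosome 4, 149449687–149454978) read 114, 129 and 131 CPM in pWT and 20.7 and 14.2 CPM in pIR. The groups were far apart and the libraries within each were close. Its log2 fold change was -2.93 ± 0.21 (edgeR adjusted p = 0.00327), -2.67 without pIR 2 (edgeR adjusted p = 0.0171) and -2.51 with the atrial covariate in 13 libraries (edgeR adjusted p = 0.00074). In E18.5 hearts Rbp7 read 15.5 to 24.5 CPM in pWT and 17.9 to 26.6 CPM in pIR, levels near those of the P1 pIR hearts, though E18.5 libraries form a separate table and batch. The P1 effect was lower than the E18.5 effect by a log2 difference of -2.99 (edgeR adjusted p = 0.00036).

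Timp4, an inhibitor of matrix metalloproteinases that is prominent in heart, showed the same arrangement. It read 52.4, 44.7 and 38.7 CPM in pWT and 6.63 and 7.98 CPM in pIR (log2 fold change -2.72 ± 0.19, edgeR adjusted p = 0.00327). The E18.5 hearts read 3.71 to 10.7 CPM in pWT and 4.06 to 6.50 CPM in pIR, so again the P1 pIR hearts were at the level of E18.5 hearts and the P1 pWT hearts above it. The difference between the P1 and E18.5 effects was -2.21 (edgeR adjusted p = 0.00832). The fatty acid binding protein Fabp4 read 1340, 1503 and 1395 CPM in P1 pWT, 630 and 349 CPM in P1 pIR, and 306 to 392 CPM over the 8 E18.5 hearts. Fabp4 fell by 1.62 on the log2 scale (edgeR adjusted p = 0.0421), and by 1.25 without pIR 2 (edgeR adjusted p = 0.133). With the atrial covariate in 13 libraries Fabp4 stood at -1.20 (edgeR adjusted p = 0.00911).

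Nmnat1, which makes NAD in the nucleus, lies next to Rbp7 (chromosome 4, 149467572–149485202). It read 45.02, 46.3 and 47.8 CPM in pWT and 20.1 and 17.1 CPM in pIR, with little spread in either group. Its log2 fold change was -1.41 ± 0.15 (edgeR adjusted p = 0.0179), and -1.28 without pIR 2 (edgeR adjusted p = 0.0903). Nmnat1 also fell in P1 kidney (-1.50, edgeR adjusted p = 0.00335), liver (-1.35, edgeR adjusted p = 3.86e-05) and lung (-2.0, edgeR adjusted p = 0.000975), and the heart effect differed from the mean of those by 0.19 (edgeR adjusted p = 0.446). In E18.5 hearts Nmnat1 read 29.0 to 34.7 CPM in all 8 libraries, and the P1 effect was lower than the E18.5 effect by a log2 difference of -1.42 (edgeR adjusted p = 0.00036).

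**Figure D3:**
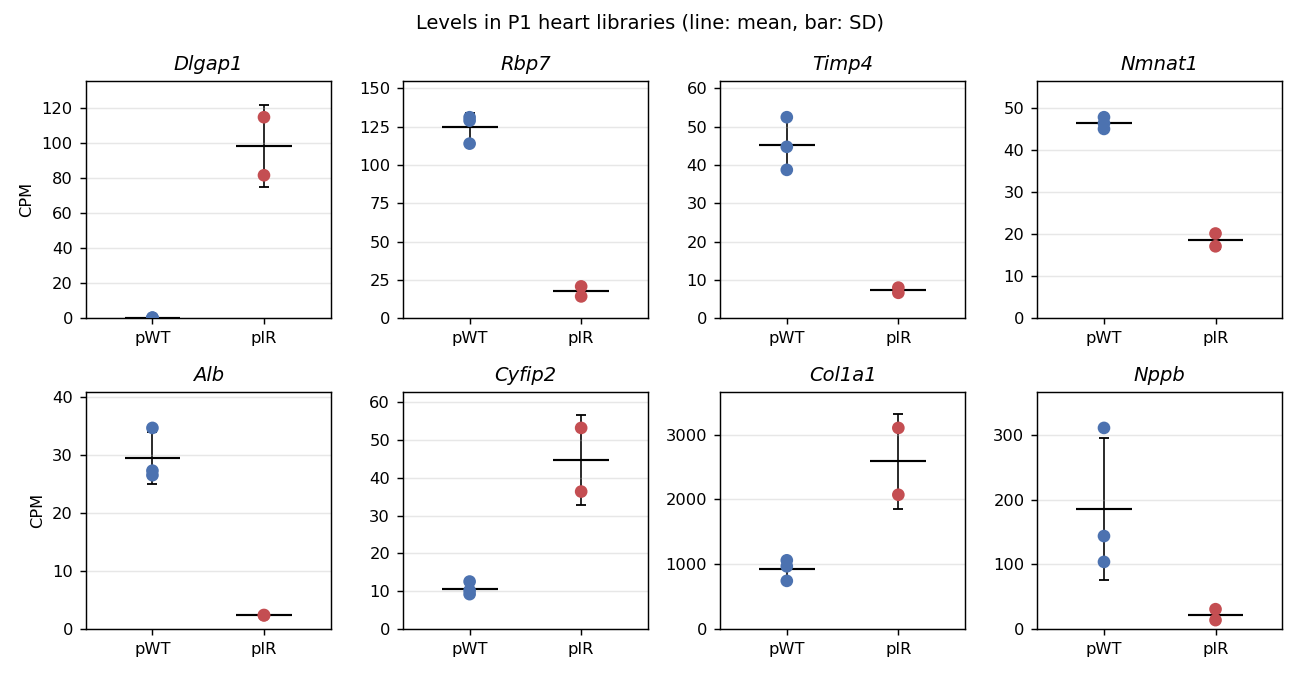
CPM of 8 genes in each P1 heart library (3 pWT in blue, 2 pIR in red), with a line at the mean and a bar of 1 SD. Dlgap1, Rbp7, Timp4, Nmnat1 and Alb have close values within each genotype, while Col1a1 and Nppb show a wider spread.

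Brain natriuretic peptide (Nppb), a hormone of stretched heart muscle, read 144, 311 and 104 CPM in pWT and 30.6 and 13.6 CPM in pIR. Every pIR value was below every pWT value, and Nppb fell by 3.19 on the log2 scale (SE 0.58, edgeR adjusted p = 0.0428). The value was -2.71 without pIR 2 (edgeR adjusted p = 0.203) and -2.96 with the atrial covariate in 13 libraries (edgeR adjusted p = 0.0305). E18.5 hearts read 201 to 411 CPM, and the P1 effect minus the E18.5 effect was -3.60 (edgeR adjusted p = 0.00428). The neighbouring natriuretic peptide gene Nppa (chromosome 4, 148000722–148002079) had a value of 1.28 (edgeR adjusted p = 0.346), -0.98 without pIR 2 and -1.78 with the covariate (edgeR adjusted p = 0.142), so its sign depended on pIR 2.

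Of the 12 genes of fetal isoforms and cardiac stress, 1 rose and 1 fell, where 1.54% of all genes tested rose and 0.786% fell. The first was Tgfb2, a growth factor of cushion and matrix formation, at 35.2, 28.2 and 28.6 CPM in pWT and 51.8 and 83.2 CPM in pIR (log2 fold change 1.04, edgeR adjusted p = 0.0443). The other was Nppb. Without pIR 2 Tgfb2 stood at 0.68 (edgeR adjusted p = 0.226). The stress gene Ankrd1 read 527, 732 and 341 CPM against 216 and 441 CPM, with overlapping groups.

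Fibroblast and matrix genes were higher in both pIR hearts, and more so in pIR 2. The list summed to 5908, 4443 and 4202 CPM in pWT, 9160 CPM in pIR 1 and 13819 CPM in pIR 2. Of its 14 tested genes 8 rose and 0 fell, where 1.54% of all genes tested rose and 0.786% fell. The median log2 fold change of the list was 0.99. The collagen Col1a1 read 1059, 966 and 742 CPM in pWT and 2071 and 3102 CPM in pIR (log2 fold change 1.39 ± 0.24, edgeR adjusted p = 0.0421). Fbln1, which binds elastic fibres and basement membranes, read 37.4, 33.1 and 23.0 CPM against 84.7 and 154 CPM (log2 fold change 1.83, edgeR adjusted p = 0.038). Dermatopontin (Dpt) rose by 1.17 and Col6a1 by 0.71. Without pIR 2 Col1a1 stood at 1.09 (edgeR adjusted p = 0.177) and Fbln1 at 1.36 (edgeR adjusted p = 0.132), so the difference was smaller and no longer called. In the 13-library fit with the atrial covariate 0 of the 14 were called, their median was 0.32 and Col1a1 stood at 0.76 (edgeR adjusted p = 0.0959).

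Smooth muscle and pericyte genes (11 tested) had 0 calls, and their sum was 3910, 3209 and 2161 CPM in pWT, 3898 CPM in pIR 1 and 8595 CPM in pIR 2. Elastin (Eln), made by the walls of the great arteries, was the most variable of them, at 1976, 464 and 253 CPM in pWT and 2157 and 7004 CPM in pIR. The higher sum in pIR 2 was therefore carried by Eln alone. Over the list 6 of 11 genes had a positive value, and the median log2 difference was 0.28 in pIR 1 and 0.25 in pIR 2. The contractile actin Acta2 read 697, 1890 and 718 CPM against 379 and 386 CPM (log2 fold change -1.65, edgeR adjusted p = 0.0945). Among vessel-lining lists, endothelium (12 tested) had a median of -0.35 and endocardium (7 tested) one of 1.09, each with 0 calls, while the endocardial sum was 177 to 240 CPM in pWT, 244 CPM in pIR 1 and 559.5 CPM in pIR 2. The epicardial list summed to 121 to 184 CPM in pWT, 129 CPM in pIR 1 and 330 CPM in pIR 2, and the lung epithelial list to 14.7 to 32.1 CPM, then 10.6 and 77.2 CPM. Thus among the 5 P1 hearts the sums of these 3 lists, like the atrial one, were highest in pIR 2. In 1 E18.5 pWT heart of batch 1 the lung epithelial sum was higher, at 149 CPM. Of the 12 conduction system genes 2 rose, Vsnl1 and Cpne5 (log2 fold change 2.57, edgeR adjusted p = 0.0474), where 1.54% of all genes tested rose. Shox2 of the sinus node did not pass (edgeR adjusted p = 0.0524).

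Of 9 hepatocyte genes 3 fell, Alb, Afp and Apoa1, each at low level in the pWT hearts, where 0.786% of all genes tested fell. Albumin (Alb, chromosome 5, 90460897–90476602) read 27.3, 34.6 and 26.5 CPM in pWT and 2.32 and 2.40 CPM in pIR. The groups did not overlap and Alb fell by 3.74 on the log2 scale (SE 0.24, edgeR adjusted p = 0.00291). Alpha-fetoprotein (Afp) read 11.6, 9.64 and 6.93 CPM against 0.53 and 0.54 CPM (log2 fold change -4.21, edgeR adjusted p = 0.014). Apoa1 fell by 2.48 (edgeR adjusted p = 0.032). These 3 genes together summed to 45.9, 50.4 and 38.04 CPM in pWT and 3.84 and 4.20 CPM in pIR. The other 6 did not pass and summed to 50.3, 47.4 and 36.8 CPM in pWT, 30.8 CPM in pIR 1 and 58.9 CPM in pIR 2, so that pIR 2 was the highest library for them. Over the whole list 6 genes were lower in pIR without overlap, as were 15.1% of all genes tested. Of the others 2, Ahsg (log2 fold change 0.19) and Apoa2 (0.01), had a positive value. In P1 liver both genes were higher in pIR: Alb read 19338 to 26136 CPM in pWT and 51162 and 66347 CPM in pIR, and Afp 4283 to 5631 CPM against 22621 and 20117 CPM. The heart effect was lower than the mean of the other 3 tissues by -4.78 for Alb (edgeR adjusted p = 0.0433) and by -5.19 for Afp (edgeR adjusted p = 0.00496). In the E18.5 hearts Alb ran from 3.01 to 89.1 CPM in pWT and from 5.27 to 48.9 CPM in pIR, a spread between single libraries as wide as the P1 difference. In the 13-library fit with the atrial covariate Alb stood at -8.02 (edgeR adjusted p = 0.0641) and Afp at -8.97 (edgeR adjusted p = 0.0309), values further from 0 than in the main comparison, with Alb no longer called. Whether the liver transcripts came from the heart or from another tissue was not tested.

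The erythroid list, genes of red cells, summed to 3757, 4024 and 4625 CPM in pWT and to 2418 and 2107 CPM in pIR. Of 9 tested genes 3 fell, where 0.786% of all genes tested fell. Of the same 9, 6 were lower in pIR without overlap, as were 15.1% of all genes tested, and 0 had a positive value. Hba-a1 and Hba-a2, near-identical copies with the same values in the table, read 1019, 1107 and 1183 CPM against 580 and 511 CPM (log2 fold change -1.11, edgeR adjusted p = 0.0396). Hbb-bt fell by 0.92 (edgeR adjusted p = 0.0399). Reads of such copies may have been split by the counting, so single values are uncertain. Without pIR 2 Hba-a1 stood at -1.01 (edgeR adjusted p = 0.177). In the 13-library fit with the atrial covariate 0 of the 9 were called, their median was -0.76 and Hba-a1 stood at -0.88 (edgeR adjusted p = 0.684).

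Genes of energy use were mostly lower, with few calls. Of 21 nuclear genes of the respiratory chain 0 had a positive value, 2 fell and the median was -0.40. Of all genes tested 0.786% fell. Ndufa4, a subunit linked to complex IV, read 512, 576 and 534 CPM in pWT and 353 and 295 CPM in pIR (log2 fold change -0.84, edgeR adjusted p = 0.0494). Cox7a1, the muscle form of a cytochrome oxidase subunit, read 132, 140 and 122 CPM against 78.9 and 79.6 CPM (-0.83, edgeR adjusted p = 0.0399). Both kept their call with the atrial covariate in 13 libraries, at -0.80 (edgeR adjusted p = 0.0331) and -0.76 (edgeR adjusted p = 0.0216), where the list's median was -0.25.

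Of 27 genes of fatty acid oxidation 0 were called and the median was -0.23, with 0.09 in pIR 1 and -0.60 in pIR 2. Members differed in direction. The fatty acid transporter Cd36 read 1503, 1373 and 1493 CPM in pWT and 830 and 478 CPM in pIR (log2 fold change -1.24, edgeR adjusted p = 0.0516). Lipoprotein lipase (Lpl) read 1718, 1149 and 1427 CPM against 860 and 682 CPM (-0.98, edgeR adjusted p = 0.0566). The uncoupling protein Ucp3 was higher, at 74.4, 51.1 and 67.8 CPM against 186 and 99.4 CPM (1.07, edgeR adjusted p = 0.0697), and was called in the 13-library fit with the covariate (1.77, edgeR adjusted p = 0.00647). Of 23 genes of glycolysis and hypoxia 0 were called, with a median of -0.43. Vegfa, the vessel growth factor of that list, read 345, 311 and 354 CPM against 261 and 147 CPM (-0.81, edgeR adjusted p = 0.0986).

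**Figure D4:**
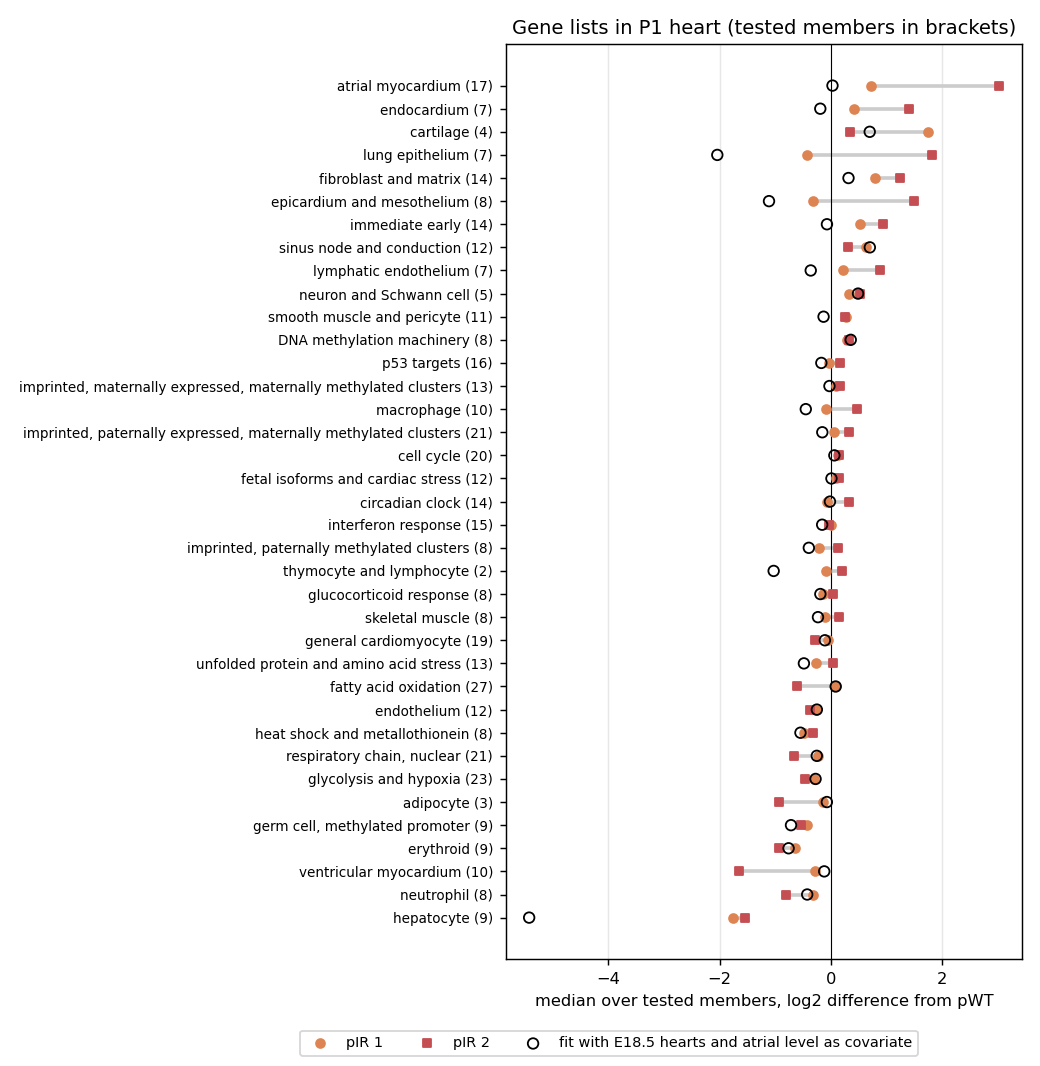
Median log2 difference from pWT over the tested members of 37 gene lists, in pIR 1 (orange circles), in pIR 2 (red squares) and as the fitted fold change of the 13-library fit with the atrial level as covariate (open circles). The atrial list has the widest gap between pIR 1 (0.73) and pIR 2 (3.02), and the hepatocyte list the lowest fitted median, at -5.42.

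Of 8 heat shock and metallothionein genes 3 fell, where 0.786% of all genes tested fell. The small heat shock protein gene Hspb1 read 250, 314 and 287 CPM in pWT and 150 and 123 CPM in pIR (log2 fold change -1.16, edgeR adjusted p = 0.0394). The chaperone Hsp90aa1 fell by 0.94 (edgeR adjusted p = 0.0428) and the metal-binding Mt1 by 0.99 (edgeR adjusted p = 0.042). All 3 kept their call with the atrial covariate in 13 libraries, the largest of the edgeR adjusted p being 0.0179. The immediate early list, genes switched on within minutes of a stimulus, had 0 calls among 14, a median of 0.76 and 12 positive members, such as Fos at 2.30, 3.40 and 8.12 CPM against 16.2 and 24.2 CPM (edgeR adjusted p = 0.0597). Cell cycle (20 tested), p53 target (16), interferon (15), clock (14), unfolded protein (13), glucocorticoid (8) and macrophage (10) lists had 0 calls, with medians between -0.18 and 0.23. So had the neuron and Schwann cell (5), neutrophil (8), lymphocyte (2), adipocyte (3), skeletal muscle (8), cartilage (4) and lymphatic (7) lists, with medians between -0.85 and 1.08.

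Imprinted genes are expressed from 1 parental copy under marks that are set as DNA methylation in the germ line, and some clusters carry the mark on the paternal copy. In those clusters 8 genes were tested and 0 were called, with a median of 0.01. H19, the maternally expressed RNA of the Igf2 cluster, read 4735, 3439 and 4588 CPM in pWT and 4133 and 6889 CPM in pIR (log2 fold change 0.28 ± 0.27, edgeR adjusted p = 0.561). Igf2, the paternally expressed growth factor beside it, read 3423, 3038 and 3623 CPM against 3105 and 5480 CPM (0.26 ± 0.27, edgeR adjusted p = 0.589). Meg3, the maternally expressed RNA of the Dlk1 cluster, read 156, 80.1 and 122 CPM against 105 and 156 CPM (0.04 ± 0.26, edgeR adjusted p = 0.937). Dlk1 stood at 0.26, Rian at -0.10, Mirg at -0.29, Rtl1 at -0.67 and Zdbf2 at -0.01, the smallest edgeR adjusted p being 0.277, for Rtl1. In these 8 genes the groups overlapped except for Dlk1 (higher in pIR) and Rtl1 (lower), where 44.6% of all genes tested did not overlap. Of 13 maternally and 21 paternally expressed genes of maternally methylated clusters 0 were called. Mest, a paternally expressed hydrolase, came close, at 983, 1148 and 1102 CPM against 681 and 623 CPM (-0.82, edgeR adjusted p = 0.0556).

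The DNA methylation machinery showed 0 calls among 8 genes. The maintenance methyltransferase Dnmt1 read 52.0, 75.0 and 56.4 CPM in pWT and 85.9 and 79.6 CPM in pIR (log2 fold change 0.33 ± 0.20, edgeR adjusted p = 0.337). The de novo enzyme Dnmt3a read 138, 126 and 147 CPM against 183 and 211 CPM (0.43, edgeR adjusted p = 0.0953), and the demethylation enzyme Tet1 29.8, 22.1 and 27.1 CPM against 35.8 and 47.5 CPM (0.57, edgeR adjusted p = 0.0988). Dnmt3b, Uhrf1, Tet2, Tet3 and Tdg had values between -0.19 and 0.38. Germ cell genes with promoters that are methylated in somatic tissue had 0 calls among 9 tested and a median of -0.50. Ddx4 of that list read 0.791, 0.657 and 1.32 CPM in pWT and 0.199 and 0.30 CPM in pIR. A further 11 genes of the list were too low to test.

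Where the heart effect was set against the other tissues of the same age, 558 genes had a higher and 758 a lower effect in heart than the mean effect in kidney, liver and lung (3.12% and 4.24%, together 7.37% of 17862 genes), and 148 of the 349 heart calls were among them. Besides Dlgap1, the higher ones included Fgf12 (difference 6.40, edgeR adjusted p = 0.00331) and Slc17a7, a vesicular glutamate transporter (4.81, edgeR adjusted p = 0.0182). The lower ones included Irx1, a homeobox factor (-3.57, edgeR adjusted p = 0.00926), and Mrap, a melanocortin receptor partner (-2.42, edgeR adjusted p = 0.00926). Taken alone, Fgf12, Slc17a7 and Irx1 were too low to test in P1 liver, and Mrap in P1 kidney. Irx1 read 11.6, 15.9 and 20.9 CPM in pWT hearts, 5.17 CPM in pIR 1 and 0.42 CPM in pIR 2. The number of genes passing this test depended on the heart library pIR 2, without which 1 pIR heart remained. The other tissues kept both pIR libraries in that fit.

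Against the E18.5 hearts, 536 genes had a higher and 694 a lower effect at P1 (3.42% and 4.42%, together 7.84% of 15690), and 259 of the 349 P1 calls were among them. Stage and batch cannot be told apart in that contrast. Over the 8 E18.5 hearts, the median log2 difference of the 231 risen genes from their own pWT mean lay between -0.12 and 0.26 in each library, the highest being pIR 3, which also had the most Myl7 of those hearts (1185 CPM). For the 118 fallen genes it lay between -0.05 and 0.06. Without P1 pIR 2 the count was 237, and with the atrial covariate it was 314.

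Called genes were also counted along the genome, with no test of their spacing. Chromosome 4 held 20 of the 118 that fell, among 914 tested there (2.19%, against 0.786% of all genes tested). In windows of 5 Mb, the one at 115 to 120 Mb of chromosome 4 held 10 fallen and 0 risen genes of 78 tested, among them Uqcrh, Atp6v0b and Ybx1. The window at 145 to 150 Mb held Rbp7, Nmnat1, Nppb and Zfp991 among the fallen and Clstn1 among the risen, of 52 tested. On chromosome 11, the window at 95 to 100 Mb held 9 risen and 0 fallen genes of 93 tested, where 1.54% of all genes tested rose, among them Kat7, Spop and Ngfr. The windows and the genes in them were picked after their values were seen, and they carry no test. Genes that rose also had longer transcripts, with a median of 4014 bases against 1853 bases for those that fell and 3302 bases for all tested, where 98.0% of tested genes had a length. Spearman's rho of the fold change with length was 0.22 and with GC content 0.12 across 14726 genes, which share the same 5 libraries. The part of transcript length or RNA quality in the called genes was not tested.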

How the data were processed

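Polyadenylated RNA of samples labelled heart was sequenced. The submitters' processing notes name Trim Galore 0.6.6 for trimming, HISAT2 2.1.0 and the build mm10 for alignment and featureCounts 1.6.4 for gene counts, with strand and multimapping settings not given in the sources used here. The deposited values are raw counts for 25277 gene symbols, and 3 of 10 tables were used. Genes passing filterByExpr (minimum count 10) were TMM-scaled and tested by quasi-likelihood in edgeR 4.0.16 under R 4.3.3, with Benjamini-Hochberg adjustment and a threshold of 0.05. SE is the fold change over the root of F. CPM use library totals. Effects were compared with other P1 tissues (20 libraries) and E18.5 hearts (13 libraries) by interaction contrasts. Scripts were tested on simulated data.

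The members, the 38 gene lists (501 entries) and the tests were chosen with earlier results of these data known. Genes are named if among the 12 called with the largest rise or fall, non-overlapping and reaching a group mean of 5 CPM; if members of the chamber, paternally methylated imprinted, methylation machinery or earlier-result lists; if among the 4 smallest p of another list; or if among the 6 largest called differences per direction in an interaction. Positions are GENCODE M21, and promoters RefSeq. The earlier-result list held 7 genes, of which 1 rose (Dlgap1), 3 fell (Rbp7, Nmnat1, Timp4) and Selenbp2, Slc16a3 and Sectm1a did not pass. Alternatives were DESeq2 1.42.0, RLE factors, no filter, no haemoglobin genes, all P1 libraries, each library left out, the replicate block and an atrial covariate, the mean log2 CPM of the 17 atrial genes. No TMM factors and the 13-heart fits were added after seeing the data.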

Additional observations from a re-analysis of the deposited data

Results flagged for a closer look

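The genotype effect in P1 heart differed from the mean effect in P1 kidney, liver and lung for 1316 genes and from the effect in E18.5 heart for 1230 genes, by edgeR interaction contrasts. All values below are log2 differences of effects from those contrasts, and each passed an adjusted p threshold of 0.05.

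Against the other P1 tissues the effect was higher in heart for Dlgap1 (7.78), Fgf12 (6.40), Mybphl (5.66), Myl7 (5.32), Slc17a7 (4.81), Tmem163 (4.76), Gadl1 (4.58), Myl4 (3.74) and Rd3 (3.48). It was lower for Afp (-5.19), Alb (-4.78), Irx1 (-3.57), the X-linked homeobox gene Rhox5 (-2.66), the carbonic anhydrase Car4 (-2.44), Mrap (-2.42), the acetylcholinesterase anchor Colq (-2.38), the potassium channel subunit Kcne3 (-2.04), the lectin Clec1a (-1.37) and the sulfotransferase Sult1a1 (-1.37). Several of the higher ones belong to the atrial list or were highest in the library pIR 2. Some of these genes were too low to test in single tissues, whose part of the subtracted mean then rests on few counts. They were Myl7, Mybphl and Gadl1 in kidney and liver, and Rhox5 in kidney and lung. In liver they were Fgf12, Slc17a7, Rd3, Irx1 and Car4, and in kidney Mrap.

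Against the E18.5 hearts the effect at P1 was higher for Dlgap1 (8.56), Slc17a7 (3.40), Gadl1 (3.34), Cilp (2.90), Myl4 (2.84) and Rd3 (2.78). It was lower for Nppb (-3.60), Rbp7 (-2.99), Tceal7 (-2.67), Colq (-2.61), Kcne3 (-2.25), Timp4 (-2.21), Sult1a1 (-1.60), Fabp4 (-1.51), Clec1a (-1.40) and Mrap (-1.05). Dlgap1 and Cilp were too low to test in the E18.5 hearts alone.

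In the E18.5 pWT hearts 1 library stood far from the other 3 in the summed hepatocyte list, at 179 CPM (pWT 2) against 29.5 to 37.1 CPM. Its gap to the nearest library passed Dixon's critical value, which by its definition chance passes in about 1 in 20 groups. Many marker lists were summed in each heart library, so this value was picked out from many sums.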

How the results depend on the processing

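The 349 calls (231 rose, 118 fell) became 1601 (849 and 752) with DESeq2, 1107 (684 and 423) without the filter, 2629 (1502 and 1127) with 20 P1 libraries and 3221 (1552 and 1669) with 13 heart libraries. They were 1 (1 and 0) with the atrial covariate, 326 (133 and 193) with 13 libraries and that covariate, and 511 (397 and 114) without TMM factors, which moved the median of all genes to 0.10. Leaving out 1 library gave 5 to 1162 calls (1 to 745 and 3 to 417). Same-numbered P1 hearts did not deviate together (r = -0.16 and -0.09). With 2 pIR hearts their deviations mirror each other, so crossed numbers gave 0.16 and 0.09, and these r cannot decide on pairing. The replicate block gave 56 calls (40 and 16), with 1 residual degree of freedom. Between P1 heart and the other tissues all 15 same-number r were positive (0.0017 to 0.13), 4 of them over 0.1, and in 12 the own number was the highest (the 2 pIR values of a tissue mirror each other), a hint from the data and not the design; the block gave 1433 calls in that contrast, against 1316. The contrast with other P1 tissues gave 2210 with DESeq2 and 30 to 1932 with 1 replicate left out. The contrast with E18.5 hearts gave 1940 with DESeq2, 314 with the atrial covariate, 0 with the replicate block (2723 genes at an unadjusted edgeR p under 0.05) and 237 to 2035 with 1 library left out. RLE factors and the removal of haemoglobin genes moved no count by over 1.5 times. TMM scaling moved the ventricular sum of pWT 2 to 31955 CPM. Under the 13-library covariate fit Fgf12 (-0.91) and Myl7 (-0.10) changed sign. Both are among the 17 genes from which the covariate was made. The cause was not tested. Over the 198 named genes, 2296 values kept direction and side of the threshold, 324 gained and 241 lost a call, and 97 moved.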
